A study of Mus musculus with 3 samples.

Results

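Restoring blood flow to a clamped liver was examined through the mature microRNAs counted after warm ischemia followed by reperfusion (IR) and after warm ischemia alone (WI). All microRNAs with at least 10 reads summed over the IR and WI libraries were compared, which gave 422 of the 1908 listed microRNAs. Of these, 375 carry a named arm (5p or 3p, the side of the precursor hairpin they are cut from) and 47 do not. The 422 microRNAs held 99.99% of the microRNA reads in each of the 2 libraries.

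MicroRNAs are short RNAs that are cut from a hairpin and pair with messenger RNAs, mainly through their seed (bases 2 to 8), which lowers the output of those messages. Hairpins that lie close together on a chromosome are often made from 1 transcript, and many microRNAs are typical of a cell type. In the liver, miR-122 and miR-192 are typical of hepatocytes, miR-223 of neutrophils and other myeloid cells, and miR-451a and miR-144 of red blood cells. A level in whole liver therefore reflects both the amount per cell and the mix of cells.

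The small RNA libraries came from livers of male C57BL/6J mice aged 8 to 10 weeks, an inbred strain, with no engineered allele. In the WI and IR groups the portal vessels and bile duct to the left and median lobes were clamped for 90 min. WI livers were then taken, whereas IR livers were taken after a further 120 min of flow. A sham-operated group (Sham) underwent a midline laparotomy without clamping, was kept for 90 min afterwards and serves as a background. Each group held 6 mice and gave 1 library, and whether RNA from all of its mice was pooled is not given in the sources used here. The return of flow and the later time of sampling cannot be told apart.

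MicroRNA reads numbered 5064014 in WI, 3784539 in IR and 3844133 in Sham. Levels are reads per 1000000 microRNA reads (CPM) after trimmed mean of M-values (TMM) scaling. Differences are on the log2(CPM + 0.1) scale, IR minus WI, and each is followed by its 95% exact counting interval in brackets. A microRNA was called higher or lower when the fold change was above 1.5 and the difference exceeded counting error (Fisher's exact test on the reads, unadjusted p under 0.01). With 1 library per group no difference has a replicate check, the intervals cover counting error only, and a call separates 2 libraries, not 2 conditions. Fewer cells of a type and less microRNA per cell cannot be told apart in these whole-liver libraries.

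The sequences on which the families, arms and neighbouring hairpins below rest are given first, from RefSeq (GRCm38.p6), with the seed in capitals. The first pairs share a seed. MiR-132-3p and miR-212-3p both rose, whereas only miR-215-5p rose of the pair with miR-192-5p, and only miR-32-5p fell of the pair with miR-92a-3p. MiR-101c is contained in miR-101a-3p, with its start moved by 1 base.
miR-132-3p: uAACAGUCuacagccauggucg
miR-212-3p: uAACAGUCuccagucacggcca
miR-215-5p: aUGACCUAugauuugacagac
miR-192-5p: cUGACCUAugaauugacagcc
miR-32-5p: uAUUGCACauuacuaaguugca
miR-92a-3p: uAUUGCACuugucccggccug
miR-101a-3p: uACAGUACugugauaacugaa
miR-101c: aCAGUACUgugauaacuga

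The next sequences are arms of 2 hairpins. The arms of miR-223 moved in opposite directions between the libraries, and those of miR-802 moved together.
miR-223-5p: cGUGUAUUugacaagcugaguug
miR-223-3p: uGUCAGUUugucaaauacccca
miR-802-5p: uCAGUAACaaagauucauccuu
miR-802-3p: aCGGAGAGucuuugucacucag

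The last set holds called members of hairpin clusters, namely 6 of the 7 in an imprinted region of chromosome 12 and 2 from the red blood cell cluster of chromosome 11. Their seeds differ. All were called higher, which follows from their choice as called members, and uncalled members of these clusters are described below.
miR-127-3p: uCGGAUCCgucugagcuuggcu
miR-434-3p: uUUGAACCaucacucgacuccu
miR-411-5p: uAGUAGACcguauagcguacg
miR-300-3p: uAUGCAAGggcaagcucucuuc
miR-381-3p: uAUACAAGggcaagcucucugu
miR-541-5p: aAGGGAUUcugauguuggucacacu
miR-144-5p: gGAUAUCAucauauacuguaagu
miR-451a: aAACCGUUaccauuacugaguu

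Between the libraries 73 of the 422 microRNAs were called (17.3%), of which 49 were higher in IR (11.6%) and 24 were lower (5.69%). Among the 375 with a named arm, 27 were higher (7.2%) and 23 were lower (6.13%), and the median difference was -0.05. Among the 47 with no arm in the name, 22 were higher (46.8%) and 1 was lower (2.13%), and the median difference was 0.88. The median over all 422 was -0.03. With no regard to counting error, 138 microRNAs (32.7%) differed by more than 1.5-fold, 108 of them with a named arm (28.8% of these) and 30 without (63.8%).

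The direction of the total depends on the scaling. When levels were set per genome-aligned read in place of TMM, the median of all members moved to -0.36 and the calls became 38 higher and 73 lower. The differences below are relative to the bulk of microRNAs, as TMM scaling sets them. If animals are taken to vary with a coefficient of variation of 0.2 or 0.4, the number of calls is 33 or 6.

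**Figure D1:**
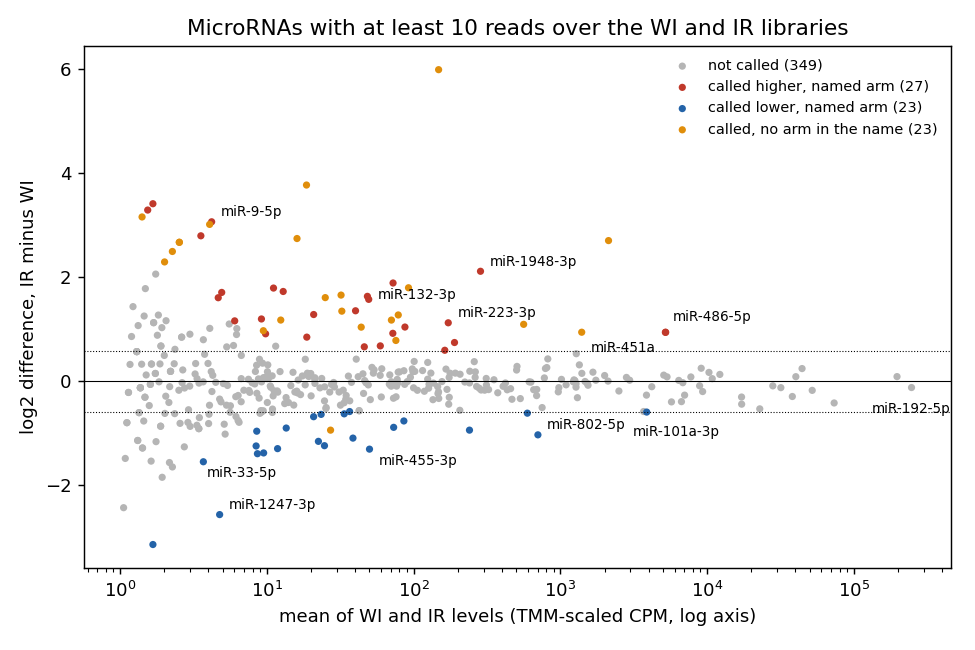
Each point is 1 of the 422 microRNAs, with the mean TMM-scaled CPM of WI and IR on a log axis and the log2 difference (IR minus WI) on the other axis. Dotted lines mark a fold of 1.5, and the 73 called microRNAs are coloured, 23 of them with no arm in the name, which lie almost all above 0.

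The most abundant microRNAs stayed within 1.5-fold. MiR-192-5p, the most abundant of the hepatocyte microRNAs listed below, had 258042 CPM in WI and 236770 CPM in IR, a difference of -0.12 [-0.13, -0.12]. MiR-21a-5p, which is induced in many injured tissues, had 40710 CPM in WI and 48089 CPM in IR, a difference of 0.24 [0.23, 0.25]. Let-7f-5p had the largest difference of the 10 most abundant, at -0.53 [-0.55, -0.52]. None of these 10 was called. Of the 122 microRNAs with at least 1000 reads, 10 were called higher and 4 lower, beside 49 (11.6%) and 24 (5.69%) of all 422. At this depth an interval can exclude 0 for a small change, and 92 microRNAs had such an interval with a fold of at most 1.5.

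The largest rises among called microRNAs with a named arm and at least 50 reads were led by both arms of miR-1948. MiR-1948-3p had 1774 reads in IR, 523 in WI and 419 in Sham, which is 108 CPM in WI, 464 in IR and 106 in Sham. Its difference was 2.11 [1.97, 2.25]. MiR-1948-5p had 150 reads in WI, 436 in IR and 78 in Sham, a difference of 1.88 [1.62, 2.16]. In both arms the IR library stood alone above Sham and WI.

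MiR-132 and miR-212 come from neighbouring hairpins whose transcription is known to be driven by the factor CREB. MiR-132-3p had 121 reads in WI and 283 in IR, beside 112 in Sham, with levels of 24.9 CPM in WI, 74.0 in IR and 28.3 in Sham and a difference of 1.57 [1.26, 1.89]. MiR-212-3p had 66 reads in IR, 24 in WI and 36 in Sham, a difference of 1.79 [1.11, 2.55]. Both were highest in IR. Both hairpins lie on the plus strand of chromosome 11 in an intron of 1700016P03Rik (NCBIM37, miR-212 at 74986890 to 74986980 and miR-132 at 74987167 to 74987267).

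MiR-223-3p, an abundant neutrophil microRNA that restrains neutrophil activity, had 528 reads in WI, 902 in IR and 435 in Sham. Its levels were 109 CPM in WI, 236 in IR and 110 in Sham and its difference 1.12 [0.96, 1.28]. MiR-215-5p, which shares its seed with the hepatocyte microRNA miR-192-5p, had 278 reads in WI and 449 in IR, beside 218 in Sham, a difference of 1.04 [0.82, 1.26]. Sham and WI were close for both microRNAs, and IR was above both.

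MiR-149-5p had another pattern. It had 113 reads in IR, 59 in WI and 117 in Sham, which is 12.1 CPM in WI, 29.5 in IR and 29.5 in Sham, and its difference from WI was 1.28 [0.82, 1.76]. IR and Sham had nearly the same level, with a difference of 0.00 [-0.39, 0.39] between them. The WI library alone was low. MiR-712-5p, whose hairpin lies in a ribosomal RNA spacer, had 29 reads in WI, 76 in IR and 34 in Sham, a difference of 1.72 [1.10, 2.41].

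The remaining members of the 12 largest rises were miR-133a-3p, miR-541-5p, miR-381-3p and miR-200c-3p, which are taken up with their cell source or cluster. Below 50 reads, miR-9-5p (4 reads in WI, 29 in IR and 3 in Sham) had a difference of 3.06 [1.70, 5.17]. MiR-592-5p (4 reads in WI, 24 in IR and 2 in Sham) and miR-204-5p (1 in WI, 12 in IR and 2 in Sham) also rose, and their intervals ran from 1.39 to 4.92 and from 1.18 to 9.35. These microRNAs were called on few WI reads.

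**Figure D2:**
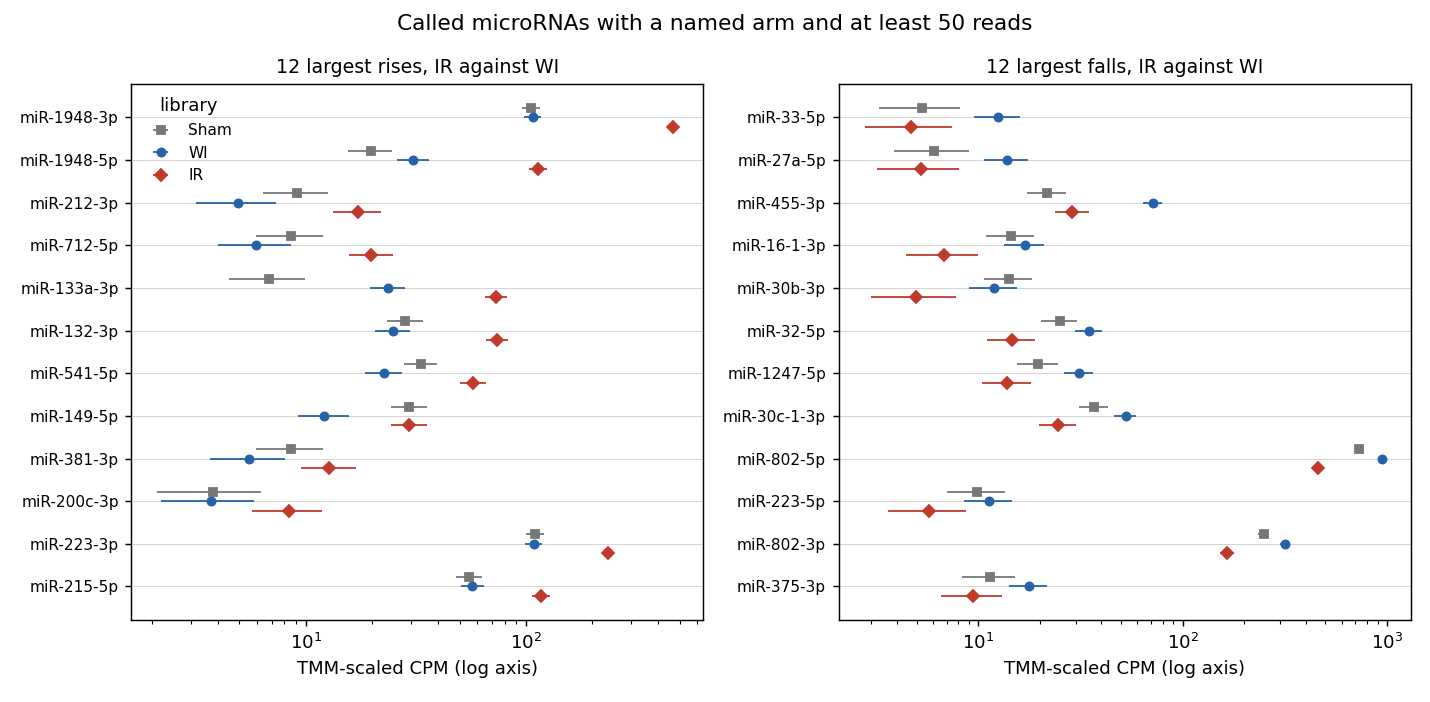
TMM-scaled CPM (log axis) of the 12 largest rises and 12 largest falls in Sham (grey squares), WI (blue circles) and IR (red diamonds), with bars for 95% exact counting intervals. For miR-1948-3p IR stood at 464 CPM against 106 in Sham and 108 in WI, whereas for miR-455-3p the WI library stood alone at 71.3 CPM.

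The largest falls had another shape, since Sham was often below WI as well. MiR-802-5p, a microRNA of hepatocytes that is linked to obesity, had 4596 reads in WI, 1766 in IR and 2905 in Sham. Its levels were 945 CPM in WI, 462 in IR and 734 in Sham and its difference -1.03 [-1.11, -0.95]. MiR-802-3p had 1538 reads in WI and 629 in IR, beside 988 in Sham, a difference of -0.94 [-1.08, -0.81]. Both arms were lower in IR than in Sham as well as WI.

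MiR-455-3p had 110 reads in IR, 347 in WI and 86 in Sham, which is 71.3 CPM in WI, 28.8 in IR and 21.7 in Sham, and differed by -1.31 [-1.63, -0.997]. Sham and IR were close, and WI was high. MiR-33-5p, which lies in an intron of the sterol factor gene Srebf2 and represses the cholesterol exporter Abca1, had 61 reads in WI, 18 in IR and 21 in Sham, a difference of -1.39 [-2.26, -0.64]. MiR-27a-5p had 67 reads in WI, 20 in IR and 24 in Sham, a difference of -1.38 [-2.20, -0.66]. The WI library was again the one that stood apart for both.

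MiR-32-5p, a member of the seed family of miR-92a and miR-25, had 169 reads in WI, 56 in IR and 99 in Sham, a difference of -1.24 [-1.71, -0.80]. MiR-1247-5p had 151 reads in WI and 53 in IR, beside 78 in Sham, a difference of -1.16 [-1.64, -0.70]. The other members of the 12 falls were miR-16-1-3p at -1.30 [-2.01, -0.66], miR-30b-3p at -1.25 [-2.09, -0.49], miR-30c-1-3p at -1.09 [-1.45, -0.75], miR-223-5p at -0.96 [-1.76, -0.24] and miR-375-3p at -0.90 [-1.51, -0.33]. Of these 12 microRNAs, IR was the lowest library for all but miR-455-3p, for which Sham was lowest. MiR-101a-3p, a repressor of the chromatin factor Ezh2, was the most abundant microRNA called lower, with 22703 reads in WI, 11812 in IR and 14442 in Sham and a difference of -0.60 [-0.63, -0.56]. Its call lies at the edge of the 1.5-fold criterion and was kept under 12 of 18 alternatives.

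Against the Sham library, which serves here as a further value because the differences from WI share the WI library, the rises and falls lay differently. Of the 27 named-arm microRNAs called higher, IR was more than 1.5-fold above Sham for 21 and within 1.5-fold of it for 6. Sham was above WI for 18 of the 27. A choice for high IR relative to WI by itself favours IR above Sham and Sham above WI. Of the 23 called lower, IR was within 1.5-fold of Sham for 13 and more than 1.5-fold below it for 10, and Sham was below WI for 21. Sham was below WI for 211 of all 375 named-arm microRNAs (56.3%), and a choice for high WI relative to IR by itself favours a Sham level below WI. Over all 24 called lower, the median difference of WI from Sham was 0.42 and that of IR from Sham was -0.48, and over all 49 called higher these were -0.11 and 1.20.

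Both arms of a hairpin come from 1 precursor, so the share of each arm does not depend on the scaling between libraries. In 111 hairpins both arms had at least 10 reads. In 76 of these (68.5%) the arms differed in the same direction between the libraries. Both arms were called in 4 hairpins, in the same direction for miR-1948 (higher), miR-802 (lower) and miR-1247 (lower), and in opposite directions for miR-223. In another 18 hairpins 1 arm was called.

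MiR-223 shows the split. Its 3p arm rose as above, whereas miR-223-5p had 22 reads in IR, 55 in WI and 39 in Sham. The 3p share of miR-223 reads was 91.8% in Sham, 90.6% (87.9 to 92.7) in WI and 97.6% (96.4 to 98.4) in IR. MiR-212 moved the same way, with a 3p share of 43.4% in Sham, 40.0% (28.6 to 52.6) in WI and 69.5% (59.6 to 77.8) in IR. In both hairpins Sham and WI were close and IR was higher. MiR-212-5p had 36 reads in WI and 29 in IR, a difference of 0.03 [-0.72, 0.78].

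MiR-455 moved the other way between WI and IR, and its WI library was the one apart. Its 3p share was 26.6% in Sham, 55.6% (51.7 to 59.5) in WI and 31.9% (27.2 to 37.0) in IR, while miR-455-5p differed by 0.11. In 7 hairpins (miR-212, miR-223, miR-27a, miR-3068, miR-30b, miR-30d and miR-455) the ratio of the arms moved by more than 1.5-fold beyond counting error. By the reads in Sham, which take no part in the comparison, the smaller arm lost share from WI to IR in 6 of the 7 hairpins and in 62 of all 111 (55.9%). By the reads in WI these counts were 5 of 7 and 61 of 110, with miR-212 and miR-455 as the exceptions among the 7. For miR-802 the 3p share stayed at 25.1% in WI and 26.3% in IR, and for miR-1948 it was 77.7% and 80.3%.

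**Figure D3:**
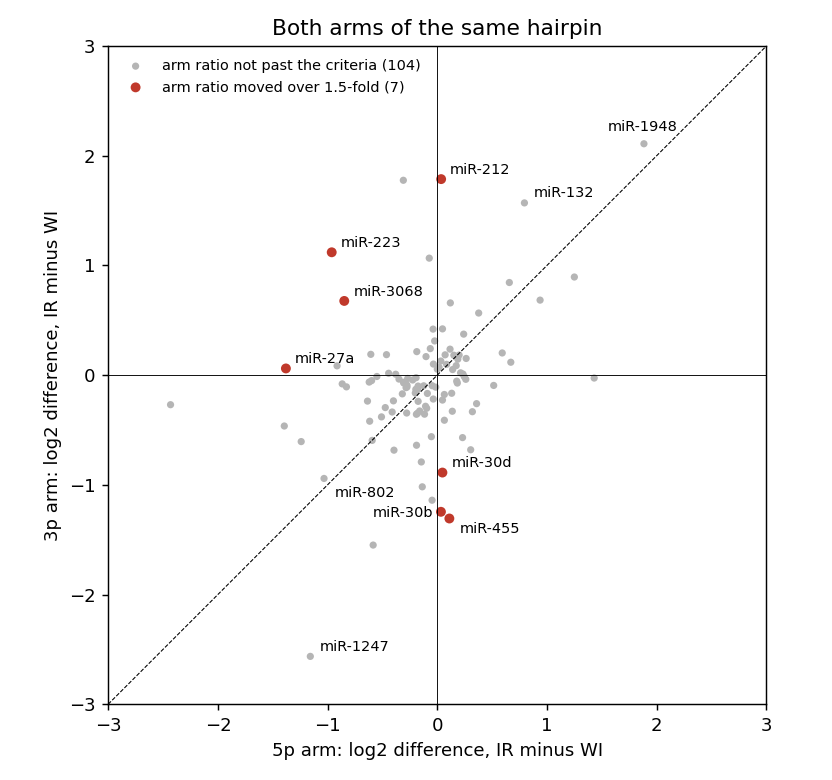
Each point is 1 of 111 hairpins, with the log2 difference (IR minus WI) of its 5p arm against that of its 3p arm. Red points are the 7 hairpins whose arm ratio moved by more than 1.5-fold beyond counting error, among them miR-223 at -0.96 (5p) and 1.12 (3p).

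Calls were sparse in the larger seed families. RefSeq gave a mature sequence for 357 of the 422 microRNAs. The 13 seed families with at least 3 members hold 54 microRNAs, all with a named arm. Of these 54, 3 were called (5.56%, beside 13.3% of named arms and 17.3% of all 422), and none of the families held 2 of them. Of the 39 seeds shared by at least 2 microRNAs, AACAGUC, that of miR-132-3p and miR-212-3p, was the only one with 2 called in the same direction. None of the 39 seeds had calls in both directions.

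Of the seeds with a called member, 3 are described. MiR-215-5p rose by 1.04 while miR-192-5p differed by -0.12. MiR-32-5p fell by 1.24, while miR-25-3p, miR-92a-3p, miR-92b-3p and miR-363-3p, with the same seed AUUGCAC, differed by 0.31, 0.08, -0.32 and 0.90 without a call. MiR-29b-3p had 526 reads in WI, 243 in IR and 310 in Sham and was called lower at -0.77 [-0.99, -0.54]. Its family members miR-29a-3p and miR-29c-3p, which repress collagens as it does, differed by -0.11 and -0.34.

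Of the families with both arms measured in several hairpins, miR-30 and let-7 are described, chosen after their values were seen. Of the 6 measured 3p arms of the miR-30 family, 3 were called lower (miR-30b-3p, miR-30c-1-3p and miR-30d-3p), which is 50% beside 6.13% of all named arms, and the median of the 6 was -0.60, whereas none of the 5 measured 5p arms, the abundant ones, was called and their median was 0.03. MiR-30d-3p had 462 reads in WI and 196 in IR, beside 315 in Sham, a difference of -0.89 [-1.14, -0.65]. Of the 10 measured 3p arms of let-7 and miR-98, none was called, 9 lay below 0 and the median was -0.49. Among these 10, let-7a-1-3p and let-7c-2-3p have the same sequence, so their reads cannot be told apart. Of the 9 measured 5p arms, none was called, 8 lay below 0 and the median was -0.15. Per genome-aligned read, 7 of the let-7 3p arms and 3 of the 5p arms passed the criteria as lower, and the miR-30 5p median turned to -0.29.

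Hairpins within 10 kb on the same strand were joined into clusters. Of 27 clusters with at least 3 measured microRNAs, 5 held at least 2 called microRNAs. They were miR-212 with miR-132 on chromosome 11, miR-144 with miR-451a on chromosome 11, miR-127 to miR-136 and miR-379 to miR-410 on chromosome 12, and miR-450b to miR-322 on chromosome X. In the last, miR-503-3p was called higher (11 reads in WI, 27 in IR and 15 in Sham, 1.60 [0.58, 2.80]) and miR-450a-5p lower (199 reads in WI, 101 in IR and 140 in Sham, -0.63 [-0.99, -0.28]).

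The pair on chromosome 12 lies in the imprinted Dlk1-Dio3 region, whose microRNAs are made from the maternal copy and are known to be abundant in the embryo and brain and scarce in adult liver. Together the clusters held 16 measured microRNAs, of which 7 were called higher (43.8%, beside 11.6% of all 422), none lower and 14 lay above 0. Both clusters are described because each held at least 2 calls, and this choice by itself raises the share called. The median of the 16 was 0.90. The summed level was 272 CPM in WI, 488 in IR and 327 in Sham, a difference of 0.85 [0.74, 0.95]. Sham was above WI for 12 of the 16.

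MiR-127-3p, a microRNA antisense to the retrotransposon-like gene Rtl1 (NCBIM37, chromosome 12, 110831042 to 110831138), was the most abundant of them. It had 909 reads in IR, 692 in WI and 618 in Sham, a difference of 0.74 [0.60, 0.89]. MiR-411-5p had 243 reads in WI, 361 in IR and 283 in Sham, a difference of 0.92 [0.68, 1.16]. MiR-541-5p, in an intron of the noncoding gene Mirg, had 110 reads in WI and 221 in IR, beside 132 in Sham, a difference of 1.35 [1.02, 1.70]. IR was the highest library for these members.

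MiR-434-3p had 65 reads in WI, 92 in IR and 37 in Sham, a difference of 0.84 [0.37, 1.33]. MiR-381-3p had 27 reads in WI, 49 in IR and 34 in Sham, a difference of 1.19 [0.50, 1.94]. MiR-300-3p had 33 reads in WI, 49 in IR and 34 in Sham, a difference of 0.91 [0.25, 1.60]. MiR-376b-3p rested on 1 read in WI, 11 in IR and 5 in Sham, a difference of 3.28 [1.02, 9.23]. The interval of the last is wide because WI held 1 read. Of the 7 calls, 3 remained per genome-aligned read. In the same imprinted region, miR-1247, in an exon of Dio3os on chromosome 12 (NCBIM37, 111516258 to 111516339), went the other way, with miR-1247-3p at 40 reads in WI, 5 in IR and 24 in Sham and a difference of -2.56 [-4.35, -1.31].

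**Figure D4:**
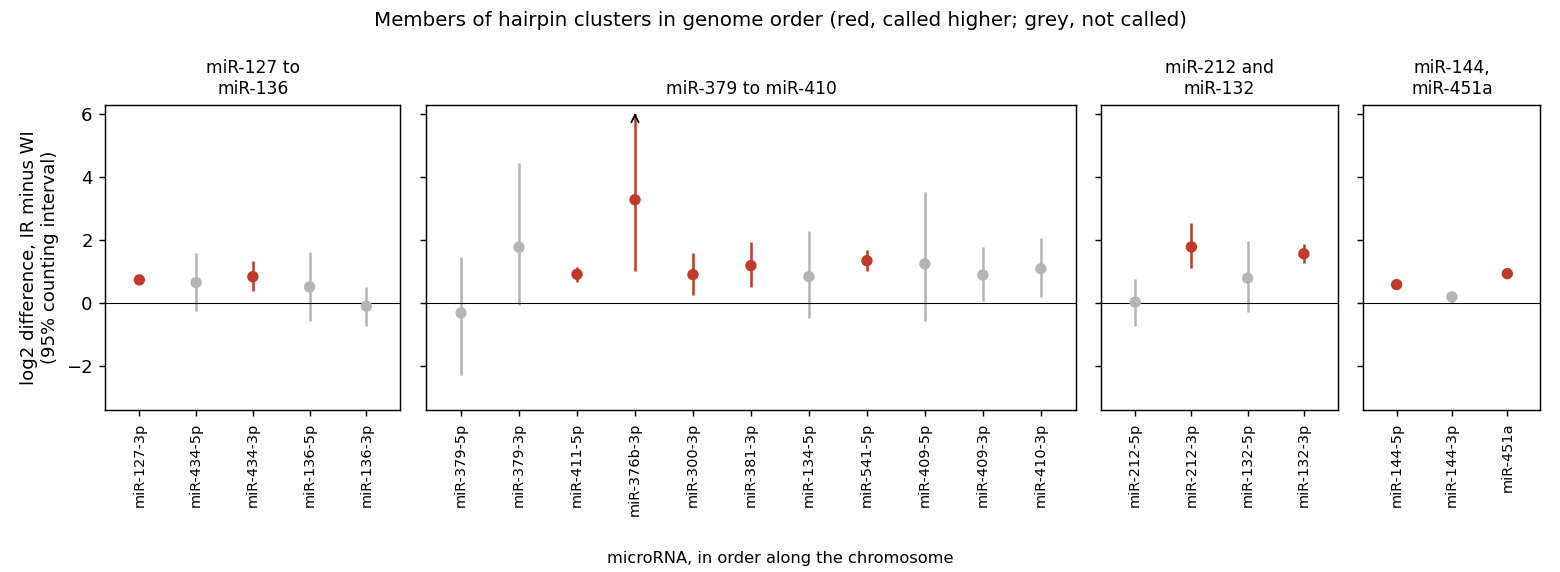
Log2 difference (IR minus WI) with 95% exact counting intervals for the members of 4 hairpin clusters in order along the chromosome, red where called higher and grey where not called. In the 2 chromosome 12 clusters 14 of 16 points lie above 0, and the arrow marks an interval that runs beyond the axis.

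Cell sources were read from lists of microRNAs typical of 9 cell types. The red blood cell list had the highest median of the lists with more than 1 member, with all 5 measured members above 0, 3 called higher (60%, beside 11.6% of all 422) and a median of 0.68. Its summed level was 4786 CPM in WI, 9028 in IR and 5062 in Sham, a difference of 0.92 [0.89, 0.94]. The sum is mostly miR-486-5p, which held 17442 of its 23284 reads in WI and 26245 of its 34522 reads in IR. MiR-451a, which matures through Argonaute 2 rather than Dicer, had 7028 reads in IR, 4666 in WI and 4107 in Sham, a difference of 0.94 [0.88, 0.99].

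MiR-486-5p, in an intron of the red cell membrane gene Ank1 (NCBIM37, chromosome 8, 24253027 to 24253154), had 17442 reads in WI, 26245 in IR and 15084 in Sham, a difference of 0.94 [0.91, 0.96]. Its reads and those of miR-3107-5p, which are near equal, cannot be told apart, although each is counted as a call. MiR-144-5p had 633 reads in WI, 750 in IR and 510 in Sham, a difference of 0.59 [0.44, 0.75], and its call was lost per genome-aligned read. The uncalled members were miR-144-3p at 0.20 [0.02, 0.38] and miR-486-3p at 0.68 [-0.16, 1.57]. MiR-451a and miR-486-5p differed from WI by nearly the same amount.

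The white blood cell list held calls in both directions. Of its 8 measured members 1 was called higher (miR-223-3p) and 1 lower (miR-223-5p), which is 12.5% each way. The shares of all 422 were 11.6% and 5.69%, and those of named arms were 7.2% and 6.13%. The call of miR-223-5p was lost with scaling to library totals and at equal depth, among others. Of the 8, 6 lay below 0 and the median was -0.20. MiR-142-5p, made in all blood cells, differed by -0.19 [-0.23, -0.15]. The lymphocyte microRNA miR-150-5p differed by -0.13 [-0.33, 0.07] and miR-155-5p, induced on activation, by -0.21 [-0.73, 0.30]. The summed level was 3168 CPM in WI, 2925 in IR and 3249 in Sham, a difference of -0.12 [-0.15, -0.08]. This sum is mostly miR-142-5p, which held 13001 of the 15412 reads in WI and 8955 of the 11186 reads in IR. It therefore does not describe the list as a group. Apart from miR-223-3p, the 7 other members ranged from -0.96 to 0.19.

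Hepatocyte microRNAs, 9 in all, had a median of -0.10, with miR-215-5p called higher and both arms of miR-802 called lower. These shares were 11.1% and 22.2%, beside 11.6% and 5.69% of all 422 and 7.2% and 6.13% of named arms. Both calls lower come from 1 hairpin. MiR-122-5p, the most hepatocyte-specific of them, differed by -0.31 [-0.32, -0.29], and the summed level was 286497 CPM in WI and 260813 in IR. Of the summed reads, miR-192-5p held 1255380 of 1393813 in WI and 905419 of 997361 in IR. Endothelial microRNAs (6 measured) had no call, a median of -0.14 and a summed difference of -0.37. That sum is mostly miR-126a-5p, with 96481 of 113829 reads in WI and a difference of -0.44, whereas miR-126a-3p differed by 0.02. Stromal microRNAs (10 measured) had no call, a median of -0.16 and a summed difference of -0.29. Nearly all of that sum is miR-143-3p, with 204396 of 212514 reads in WI and a difference of -0.30. Among the stromal ones, miR-199a-3p and miR-199b-3p have the same sequence. Bile duct epithelium (7 measured) had a summed difference of 0.04 [-0.04, 0.13] and 1 call, which is 14.3% beside 7.2% of named arms called higher. The call was miR-200c-3p, which had 18 reads in WI, 32 in IR and 15 in Sham and differed by 1.16 [0.30, 2.10].

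MiR-133a-3p was the only measured member of the striated muscle list, and it had 115 reads in WI and 280 in IR, beside 27 in Sham. Its difference from WI was 1.63 [1.31, 1.96]. Its level was 73.2 CPM in IR, 23.6 in WI and 6.82 in Sham, so that WI lay between the other libraries. The other muscle microRNAs were at or near 0, with miR-1a-3p, the most abundant microRNA of heart and skeletal muscle, at 1 reads in WI, 6 in IR and 0 in Sham and miR-206-3p at 0 reads in WI, 1 in IR and 0 in Sham. Muscle tissue in the samples was not tested beyond these counts.

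Among neuron microRNAs (5 measured), miR-9-5p was the single call (20%, beside 7.2% of named arms called higher). MiR-124-3p had 0 reads in WI, 4 in IR and 0 in Sham. Of the 2 measured pancreas microRNAs, miR-375-3p was called lower (50%, beside 6.13% of named arms). It had 86 reads in WI, 36 in IR and 45 in Sham, and miR-7a-5p differed by -0.09. The defining microRNAs of the pancreas were at or near 0, with no reads of miR-216a-5p or miR-216b-5p and 1 read of miR-217-5p in WI.

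**Figure D5:**
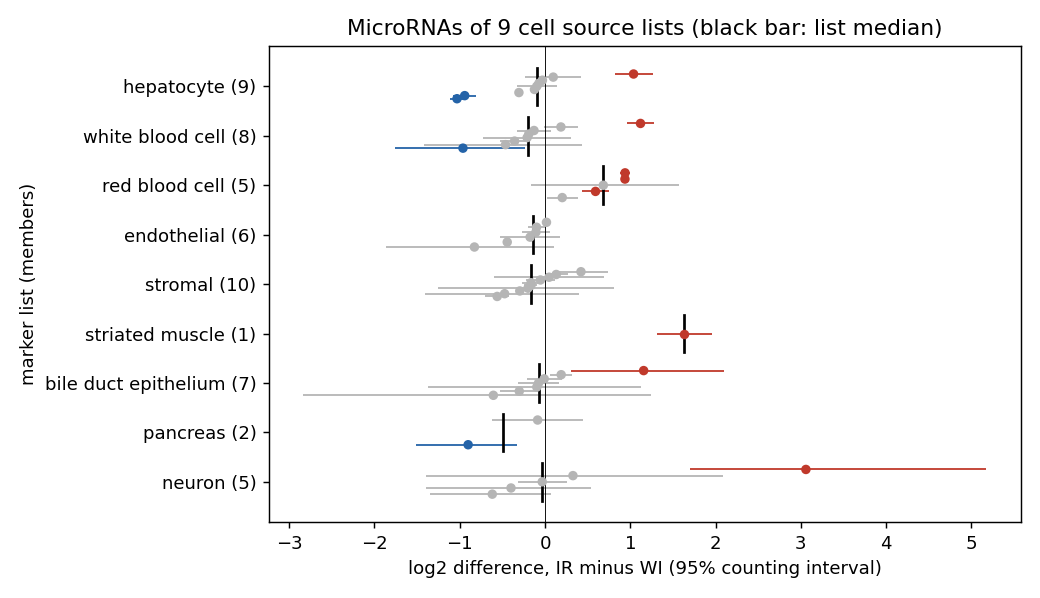
Log2 difference (IR minus WI) with 95% exact counting intervals of the measured microRNAs of 9 cell source lists, with a black bar at each median and red or blue for microRNAs called higher or lower. The red blood cell list lies wholly above 0 with a median of 0.68, and the white blood cell list has miR-223-3p at 1.12 apart from its other members.

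Of 13 measured microRNAs linked to hypoxia and tissue injury, 2 were called higher (miR-132-3p and miR-212-3p), 1 was called lower (miR-34a-5p) and the median was 0.15. These shares were 15.4% and 7.69%, beside 11.6% and 5.69% of all 422 and 7.2% and 6.13% of named arms. The 2 called higher come from neighbouring hairpins. MiR-210-3p, the main microRNA induced by hypoxia, differed by 0.08 [-0.22, 0.39]. MiR-146a-5p, a target of NF-kB signalling, differed by -0.01 [-0.06, 0.04]. MiR-34a-5p, a target of p53, had 214 reads in WI, 112 in IR and 135 in Sham and was called lower at -0.59 [-0.93, -0.25], a call kept under 9 of 18 alternatives.

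The microRNAs with no arm in the name, described here after their values were seen, held 22 of the 49 microRNAs called higher. MiR-6240 had 14117 reads in IR, 2768 in WI and 3291 in Sham, a difference of 2.70 [2.64, 2.76]. MiR-5126 had 201 reads in WI, 548 in IR and 160 in Sham, a difference of 1.79 [1.56, 2.03], and miR-690 had 140 reads in WI, 226 in IR and 86 in Sham, a difference of 1.04 [0.73, 1.35]. MiR-5100 had 75 reads in WI and 186 in IR, beside 7 in Sham, and so differed between Sham and WI as well. The single microRNA of this kind called lower was miR-101c, with 174 reads in WI, 71 in IR and 97 in Sham and a difference of -0.94 [-1.37, -0.54], whose sequence lies within miR-101a-3p.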

How the data were processed

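The authors removed adaptors, kept reads of small RNA length, aligned them with Bowtie 0.12.7 (per the labels) to the mm9 genome, assigned RNA classes with HTSeq and used miRDeep2 to count mature microRNAs. The labels name mm10 instead, and the coordinates given here come from the GENCODE annotation of NCBIM37 (mm9). The deposited values are raw counts of reads per mature microRNA, without molecular identifiers.

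The libraries were scaled together by TMM in edgeR 4.0.16 (R 4.3.3), with factors of 1.03 (Sham), 0.961 (WI) and 1.01 (IR). A microRNA was called when its fold change on log2(CPM + 0.1) exceeded 1.5 and Fisher's exact test (two-sided, scipy 1.17.1) on its reads in both libraries gave an unadjusted p under 0.01, the criteria of the methods of the study. Intervals of ratios and arm shares are 95% exact (Clopper-Pearson) or Wilson intervals for counting error only. Edge cases were 27 microRNAs with 10 to 12 reads, just inside the minimum, and 25 with 8 or 9, just outside.

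Named were the 10 most abundant microRNAs, the 12 largest rises and 12 largest falls with a named arm and at least 50 reads, their other arms, members of the cell source lists, and clusters or seed families with at least 2 calls. Others named in the text were chosen after their values were seen. The members, lists and rules were chosen with earlier results of these data known. The procedure was tested on simulated data. Other settings tried were the scaling (including size factors from DESeq2 1.42.0), pseudocount, read minimum, thresholds and depth, and edgeR's exact test with an assumed variation. With 1 library per group, edgeR's quasi-likelihood test had no residual degrees of freedom.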

Additional observations from a re-analysis of the deposited data

How the results depend on the processing

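The 73 calls (49 higher, 24 lower) became 111 per genome-aligned read (38 higher, 73 lower, 62 of the 73 calls kept). With an assumed coefficient of variation of 0.2 there were 33 calls (29 higher, 4 lower) and with 0.4 there were 6 (6 higher and 0 lower, beside 24 lower by Fisher's test). A minimum of 100 reads left 32 higher and 17 lower, a fold above 2 left 37 higher and 12 lower, and named arms alone left 27 higher and 23 lower. Of 1258 recomputed values of called microRNAs, 168 lost the call and 0 reversed direction. Settings that change only the read minimum, the thresholds, the test or the members keep the same difference, so no reversal could arise there. A looser p threshold, no read minimum or named arms alone could not remove the call of a microRNA they include. The numbers of alternatives under which a call was kept are raised in part by such settings. MiR-223-5p kept its call under 11 of 17 alternatives. Of the 12 largest rises 9 and of the 12 largest falls 2 kept their call with a coefficient of variation of 0.2. No paired analysis was possible because each group has 1 library. Variation between animals, PCR copies and reads shared by near-identical microRNAs are not covered by the counting intervals.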

Other observations

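GC content of the mature sequence had a Spearman rho of 0.06 with the log2 difference over 322 named-arm microRNAs, which share the same 2 libraries. The 28 microRNAs with GC content under 35% had a median difference of -0.25, beside -0.05 over all with a named arm.

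MiR-455-3p, miR-33-5p and miR-27a-5p were low in both Sham and IR and high in WI, whereas miR-149-5p was high in both Sham and IR and low in WI. For these 4 microRNAs the difference of IR from Sham was 0.40, -0.17, -0.21 and 0.00.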
